A study of Mus musculus with 2 samples.

Results

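Pregranulosa cells are the somatic precursors of granulosa cells, the supporting cells that enclose each oocyte in a follicle. The cells described here were pregranulosa cells of the E15.5 mouse fetal ovary in which no transcript of Lgr5 was counted, and they are called Lgr5-zero pregranulosa cells below. A cell barcode was taken when it held at least 3000 unique molecular identifiers (UMIs, which mark single captured transcripts) and under 10% mitochondrial UMIs. Per 10000 UMIs, its 6 germ cell genes (Dazl, Ddx4, Smc1b, Sycp1, Sycp3 and Stra8) had to sum to under 10, and its 5 pregranulosa genes (Fst, Kctd14, Gng13, Foxl2 and Wnt6) to at least 5 and to more than Krt19, Krt7 and Upk3b together. The collagen genes Col1a1, Col1a2 and Col3a1 had to sum to under 15, and Lgr5 had to have 0 UMIs. This left 1607 cells of 25395, of which 1132 were among 15883 cells of the KO library and 475 among 9512 cells of the WT library. They were 24.9% (95% Clopper-Pearson interval 23.6 to 26.1) of the 4554 KO somatic cells and 22.3% (20.6 to 24.2) of the 2128 WT somatic cells. All UMI counts in this rule chose the cells, so their levels are given only as a description.

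The series asked what loss of the glucocorticoid receptor (GR, the steroid hormone receptor encoded by Nr3c1) does to the fetal ovary. KO embryos were homozygous for a constitutive deletion, made by recombining an exon 3 floxed allele (Nr3c1tm1.1Jda) with a β-actin Cre line, which acts in every tissue, and they came from crosses between heterozygotes. WT embryos carried the intact allele, all embryos were female, and the germ cell reporter transgene Tg(Pou5f1-EGFP)2Mnn was used in both groups. Ovary pairs of 2 KO and of 4 WT embryos were pooled by genotype with the mesonephroi removed, GFP+ germ cells were sorted and mixed with somatic cells at 60 to 40, and each pool gave 1 droplet library with counts from the 3' end of transcripts. Neither group had a replicate, so cells were not tested against each other and p-values are absent, and genotype cannot be told apart from pool, sort or capture.

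LGR5 is a receptor for R-spondins, secreted proteins that amplify WNT signalling by keeping WNT receptors on the cell surface. Pregranulosa cells arise in more than 1 wave: an early group settles in the medulla, and a later group descends from the ovarian surface epithelium, lies in the cortex and is known for Lgr5. Both surround germ cells and supply KIT ligand, and FOXL2 is the transcription factor most associated with their later granulosa identity.

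Whole libraries differed in depth. Kept cells had a median of 10281 UMIs in KO and 15637 in WT, Scrublet marked 7.71% and 3.26% of them as doublets, and 75 barcodes occurred in both libraries. Among Lgr5-zero pregranulosa cells the medians were 7682.5 UMIs and 2669 genes in KO and 10971 UMIs and 3393 genes in WT, 11 KO and 2 WT cells were marked as doublets, and 5 KO and 2 WT cells had a shared barcode. Their summed counts were 8961361 UMIs in KO and 5394892 in WT. All levels below are counts per 1000000 UMIs (CPM) of a cell class, and intervals in parentheses are exact 95% intervals that cover counting error only.

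The label was checked first, since a count of 0 is weak evidence of absence in a shallow cell. Of 2239 KO pregranulosa cells, 50.6% (48.5 to 52.6) had 0 Lgr5 UMIs, and of 1054 WT pregranulosa cells 45.1% (42.0 to 48.1) had none. The remaining 1107 KO cells and 579 WT cells are called Lgr5-positive below. In these, 532 KO cells and 191 WT cells held a single Lgr5 UMI, and the most in any cell was 9 in KO and 12 in WT. The line between both classes was therefore often drawn by 1 molecule.

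Depth moved the share of Lgr5-zero cells strongly. In KO it was 82.5% of cells with 3000 to under 6000 UMIs, 56.5% from 6000, 38.5% from 9000, 23.9% from 12000 and 11.8% (4 of 34 cells) from 18000 UMIs upward. In WT the shares in the same bins were 94.4%, 80.9%, 62.5%, 28.8% and 22.7%. Within each of these 5 bins the WT share lay above the KO share, although over all cells it lay below. When every cell was thinned at random to 3000 UMIs, 75.7% (73.9 to 77.5) of KO and 76.4% (73.7 to 78.9) of WT pregranulosa cells had 0 Lgr5 UMIs. The difference of the shares over all cells was thus not seen after thinning. Within bins of the depth before thinning, the thinned shares still differed. They were 76.7% in KO and 88.2% in WT from 6000, and 70.0% and 81.1% from 9000 UMIs, with intervals apart. Intervals overlapped in the other bins, and from 12000 UMIs KO was higher (77.1% and 71.2%). For reference, at 3000 UMIs 1.14% of KO and 0.718% of WT germ cells had an Lgr5 UMI, against 47.7% and 46.1% of Lgr5-positive pregranulosa cells, and the part of free RNA or doublets in the UMIs of germ cells was not tested. The class is thus defined by 0 UMIs at the depth reached, and absence of the transcript from each cell was not shown.

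**Figure D1:**
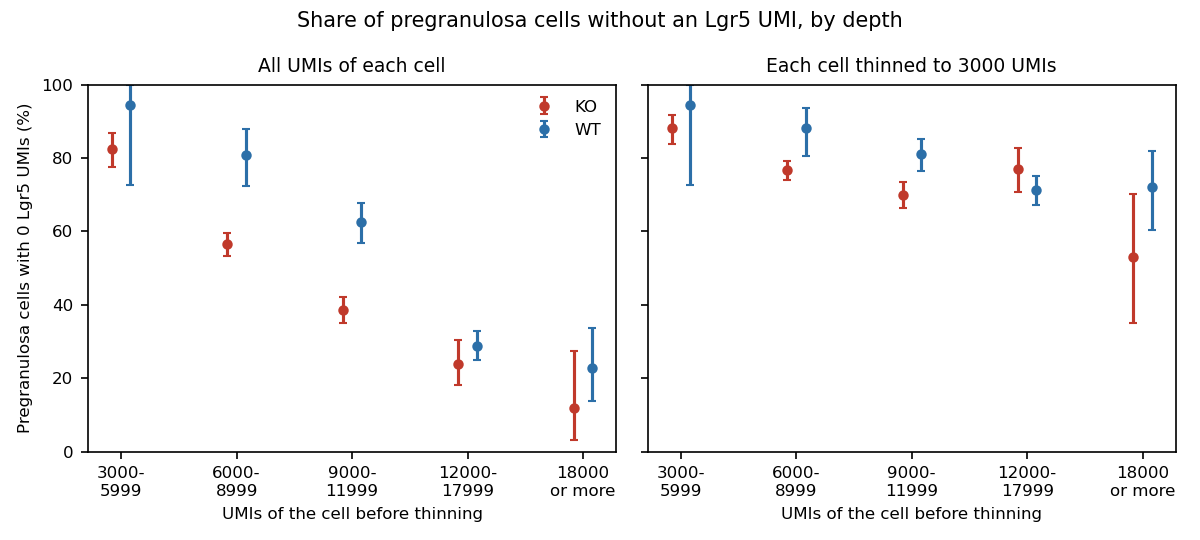
Share of pregranulosa cells with 0 Lgr5 UMIs (y axis, percent) by the UMIs of the cell (x axis, 5 bins) in KO and WT, with all UMIs and after thinning each cell to 3000 UMIs; bars are exact 95% binomial intervals. With all UMIs the share falls from 82.5% to 11.8% in KO and from 94.4% to 22.7% in WT, and after thinning the points of both libraries lie between 52.9% and 94.4%.

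The limits of the rule cut through a continuum. The lowest sum of the 5 pregranulosa genes in a chosen cell was 5.04 per 10000 UMIs in KO and 5.02 in WT, and the nearest cells left out had 4.98 and 4.75. The median sum was 33.5 in KO and 33.7 in WT, so most chosen cells lay far above the limit, while 71 KO and 34 WT cells had a sum under 10. The highest germ cell sum inside was 9.99 in KO and 8.84 in WT, with 10.7 and 10.2 just outside. The highest collagen sum inside was 14.9 and 14.7, with 15.1 and 15.0 just outside.

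The markers gave the cells a pregranulosa profile with a weak point at Foxl2. Fst encodes follistatin, which binds and inactivates activin, and it stood at 576 CPM in KO and 605 CPM in WT Lgr5-zero cells against 385 and 370 CPM in Lgr5-positive cells. Kctd14, a gene of the potassium channel tetramerisation domain family, was at 1111 and 1478 CPM against 799 and 939 CPM. Gng13, a G protein gamma subunit, ran the other way, with 1181 CPM in KO and 766 CPM in WT Lgr5-zero cells and 1960 and 1884 CPM in Lgr5-positive cells. Wnt6, a WNT ligand, was at 694 and 664 CPM against 692 and 723 CPM. These levels were used to choose the cells, but the split by Lgr5 was not made on them. Fst and Kctd14 were thus the higher genes of the set in Lgr5-zero cells of both libraries, Gng13 was the lower gene, and Wnt6 lay close to level.

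Foxl2 was near the limit of detection. It gave 33 UMIs (3.68 CPM) in KO and 30 UMIs (5.56 CPM) in WT Lgr5-zero cells, and after thinning 1.06% (0.549 to 1.84) and 1.26% (0.465 to 2.73) of them held a Foxl2 UMI. Among collagen-high somatic cells these shares were 0.536% and 0.307%, and the intervals overlapped. That class includes 158 KO and 86 WT cells with 0 Lgr5 UMIs that met the pregranulosa limits and were left out by collagen. It is therefore not a class known to lack Foxl2, and the overlap does not show that the UMIs were background. Its level was nonetheless higher than in Lgr5-positive cells (1.01 and 1.71 CPM), with log2 ratios of 1.86 (0.84 to 3.00) in KO and 1.70 (0.74 to 2.73) in WT. It was below the 100 UMIs that a gene needed to be counted in the comparisons.

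Kitl and Irx3 were not used by the rule. Kitl encodes the ligand of the KIT receptor of germ cells. It stood at 674 CPM in KO and 648 CPM in WT Lgr5-zero cells against 142 and 106 CPM in the soma outside the pregranulosa class, a log2 ratio of 2.25 (2.18 to 2.32) and 2.61 (2.51 to 2.70). Irx3, an Iroquois homeobox transcription factor gene, was at 430 and 478 CPM against 59.9 and 49.6 CPM, a log2 ratio of 2.84 (2.74 to 2.94) and 3.27 (3.14 to 3.40). At 3000 UMIs per cell, 76.5% of KO and 74.1% of WT Lgr5-zero cells held a Kitl UMI, while 4.84% and 2.90% of germ cells and 12.6% and 11.8% of collagen-high cells did. Keratin-high somatic cells lay nearer, with a Kitl UMI in 52.0% and 40.2% and an Irx3 UMI in 33.4% and 39.2% of them. Against Lgr5-positive cells, by contrast, neither gene was far from level: the log2 ratio was -0.01 (-0.06 to 0.04) and -0.03 (-0.09 to 0.03) for Kitl, and -0.03 and -0.08 for Irx3.

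**Figure D2:**
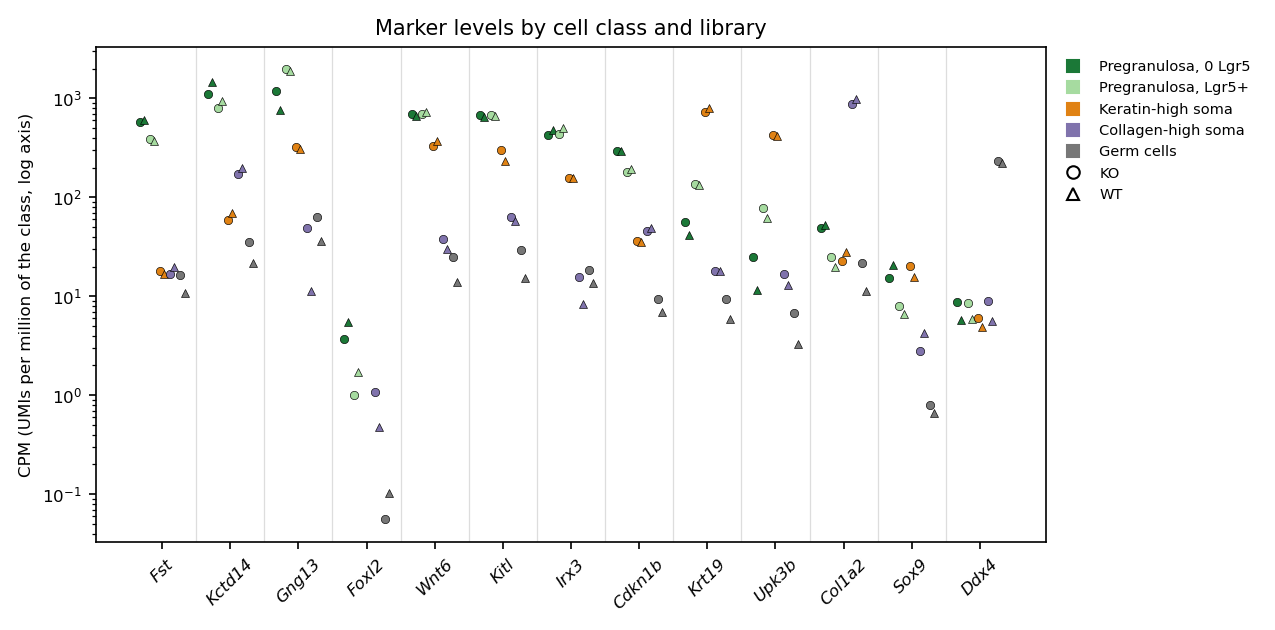
Level (CPM, log axis) of the 7 markers and of Cdkn1b, Krt19, Upk3b, Col1a2, Sox9 and Ddx4 in each library. Lgr5-zero and Lgr5-positive pregranulosa cells, keratin-high and collagen-high soma and germ cells are drawn, without intervals, and levels of 0 are not drawn. Kitl and Irx3 lie at similar levels in both pregranulosa classes and lower in every other class, Gng13 is lower in Lgr5-zero than in Lgr5-positive cells, and Foxl2 does not exceed 5.56 CPM in any class.

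Germ cell transcripts were present at a low level. For 13 germ cell genes, the level in Lgr5-zero cells was a median of 3.20% (range 1.55 to 4.92) of that in KO germ cells and 2.34% (1.54 to 4.36) of that in WT germ cells, and the other somatic classes had medians between 1.97% and 3.25%. Ddx4, an RNA helicase of germ cells, was at 8.70 and 5.75 CPM in Lgr5-zero cells and at 232 and 222 CPM in germ cells. Such levels were given in every somatic class, and their part in the results was not tested.

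The soma outside the pregranulosa class (2315 KO and 1074 WT cells, with collagen-high, keratin-high and remaining cells together) served to show where Lgr5-zero cells differed from other ovarian somatic cells. Of 9947 genes with at least 100 UMIs over both classes in each library, 1453 (14.6%) differed at least 2-fold in the same direction in both libraries, 655 (6.58%) higher and 798 (8.02%) lower in Lgr5-zero cells. The median of all genes was shifted by 0.12 in KO and 0.16 in WT on the log2 scale, and with median-of-ratios scaling, which centred it at -0.03 and -0.04, 462 genes were higher and 937 lower. Because the cells were chosen by some of their genes, these counts describe the class and are not a test.

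Wfdc10, Defb19, Spink4 and Hsd3b1 were among the 10 leading higher genes of this comparison. Wfdc10, of the WAP four-disulfide core family of protease inhibitors, stood at 54.8 CPM in KO and 67.7 CPM in WT Lgr5-zero cells and at 0.551 and 0.546 CPM in other soma, log2 ratios of 6.64 (5.74 to 7.71) and 6.95 (5.89 to 8.28). Defb19, a beta-defensin gene, was at 70.0 and 64.1 CPM against 1.10 and 0.937 CPM, and Spink4, a Kazal-type protease inhibitor gene, at 44.6 and 52.8 CPM against 0.496 and 1.41 CPM. Hsd3b1, which encodes a steroidogenic 3β-hydroxysteroid dehydrogenase, was at 39.7 and 44.9 CPM against 0.771 and 0.546 CPM. These 4 genes were nearly silent in the rest of the soma, at or below 1.41 CPM in each library.

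The other leading genes followed the same pattern. Ly6d, a membrane-anchored protein of the Ly6 family, had log2 ratios of 6.09 (5.24 to 7.11) in KO and 6.88 (5.51 to 8.77) in WT. Gstm6, a glutathione S-transferase, stood at 204 and 190 CPM against 4.13 and 3.59 CPM, and Pla2g1b, a secreted phospholipase A2, at 59.8 and 67.3 CPM against 1.54 and 1.25 CPM. Shbg, the gene of sex hormone-binding globulin, was at 20.5 and 22.6 CPM against 0.551 and 0.468 CPM. Rhox8, a homeobox gene of the reproductive cluster on the X chromosome, and Slc25a18, a mitochondrial glutamate carrier, had log2 ratios of 4.88 and 4.79 in KO and 5.74 and 5.35 in WT. Not all of these genes were evenly shared between both pregranulosa classes. Against Lgr5-positive cells, Ly6d was lower in Lgr5-zero cells (log2 ratio -1.35 and -1.07), Defb19, Gstm6 and Wfdc10 were higher (1.15 and 1.27, 1.06 and 1.05, and 0.84 and 1.77), and Rhox8, Hsd3b1 and Shbg lay between -0.17 and 0.50.

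Promoter sequences are shown for leading genes whose stretch holds a motif of GATA factors, since Gata4, which encodes a factor of this family, was measured in the same cells at 88.6 CPM in KO and 102 CPM in WT. RefSeq promoters (build GRCm38.p6, 300 bases, given 5′ to 3′ on the strand of the gene) were matched for 6 of the 10 leading genes, and Ly6d, Defb19, Spink4 and Rhox8 are named only. The letters AGATAA were searched on both strands (TTATCT on the opposite one) and are in capitals. Of the 6 genes, which had 8 promoters together, 3 held them in at least 1 promoter. The share over all 32851 promoters of the same length was 11.18%, counted per promoter and not per gene. Of the leading lower genes of this comparison 2 of 9 held them, and of the leading genes against Lgr5-positive cells 0 of 7 higher and 1 of 9 lower genes did. The letters AAGGTCA of an NR5A1 motif, searched on both strands, were held by 0 of the 6 genes and by 4.72% of all promoters. A match describes the letters only, not a bound site. The Hsd3b1 stretch lies at chr3:98859745-98860044 (minus strand), the Shbg stretch at chr11:69617856-69618155 (minus strand) and the Wfdc10 stretch at chr2:164655796-164656095 (plus strand).
Hsd3b1: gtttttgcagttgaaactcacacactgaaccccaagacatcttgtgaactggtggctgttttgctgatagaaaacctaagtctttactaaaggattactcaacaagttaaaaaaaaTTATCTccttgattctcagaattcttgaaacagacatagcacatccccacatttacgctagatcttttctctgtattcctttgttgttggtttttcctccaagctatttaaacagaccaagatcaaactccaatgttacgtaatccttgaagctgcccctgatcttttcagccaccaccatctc
Shbg: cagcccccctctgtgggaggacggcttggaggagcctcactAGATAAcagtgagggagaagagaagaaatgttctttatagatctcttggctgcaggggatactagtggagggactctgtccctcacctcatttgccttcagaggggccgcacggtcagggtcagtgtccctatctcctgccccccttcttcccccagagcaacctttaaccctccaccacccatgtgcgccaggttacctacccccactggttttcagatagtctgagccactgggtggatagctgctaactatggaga
Wfdc10: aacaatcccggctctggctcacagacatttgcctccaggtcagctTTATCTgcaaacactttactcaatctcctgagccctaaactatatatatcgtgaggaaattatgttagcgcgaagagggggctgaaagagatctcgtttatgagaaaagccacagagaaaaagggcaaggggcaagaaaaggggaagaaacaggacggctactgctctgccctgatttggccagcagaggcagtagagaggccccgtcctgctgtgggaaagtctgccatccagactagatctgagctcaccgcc

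Several transcription factor genes of the gonad were higher than in other soma. Of 16 measured members of this list, 5 were at least 2-fold higher than in other soma in both libraries and 0 lower, against 6.58% and 8.02% of all genes. The list median was 0.52 in KO and 0.56 in WT, against 0.12 and 0.16 over all genes. Nr5a1, the orphan nuclear receptor SF1, was at 39.1 and 37.8 CPM against 16.2 and 13.7 CPM. Runx1, which encodes a transcription factor of fetal granulosa cells, had log2 ratios of 1.47 (1.32 to 1.63) and 1.54 (1.34 to 1.74), Nr0b1, which encodes the receptor DAX1, 1.51 and 2.25, and Irx5, the neighbour of Irx3, 1.59 and 1.47. Gata4 and Wt1, both needed for formation of the gonad, did not reach 2-fold, with 0.53 and 0.82 for Gata4 and 0.31 and 0.40 for Wt1.

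Ligands and receptors of the pathways that act on granulosa cells are given beside all genes, of which 6.58% were higher and 8.02% lower in this comparison. Counts of a few genes in lists of this size are no result about the lists. In the WNT and R-spondin list, 2 of 23 genes were higher and 4 lower: Rspo1, the ligand of LGR5, was at 234 and 219 CPM against 75.6 and 62.3 CPM, and Rnf43, an enzyme that removes WNT receptors, had log2 ratios of 2.07 and 1.46, while Wnt5a, Rspo3, Fzd7 and Sfrp1 were lower. Wnt4, the WNT ligand required for ovarian fate, was at 295 and 321 CPM against 187 and 199 CPM, under 2-fold. In the activin, BMP and AMH list, 3 of 30 genes were higher and 4 lower. Inha, the inhibin alpha subunit, stood at 107 and 116 CPM against 6.78 and 5.85 CPM, a log2 ratio of 3.99 (3.72 to 4.27) and 4.31 (3.96 to 4.67), Amhr2, the receptor of anti-Müllerian hormone, at 352 and 330 CPM against 79.5 and 68.1 CPM, and Bmp2, a BMP ligand, at 54.3 and 47.6 CPM against 10.8 and 8.98 CPM. The lower genes were Inhba, Acvr1, Tgfb2 and Tgfbr2. Amh itself had 2 UMIs in each library.

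Retinoic acid, Notch and hedgehog genes ran in both directions, with 5 of 11, 3 of 6 and 2 of 6 genes past 2-fold, against 14.6% of all genes. Lists this short give no result about the pathways. Aldh1a1, which makes retinoic acid, stood at 224 and 200 CPM against 25.1 and 29.4 CPM, and Dhrs3, which limits its synthesis, had log2 ratios of 1.38 and 1.59. In the retinoic acid list 2 of 11 genes were higher, and Crabp1 and Crabp2, which encode binding proteins, were among the lower. Hes1, a target gene of Notch, was at 1348 and 1629 CPM against 581 and 629 CPM, while the receptor genes Notch1 and Notch3 were lower (1 higher and 2 lower of 6 genes). Ptch1, the hedgehog receptor and target, had log2 ratios of 1.12 and 1.24, and Gas1, a hedgehog co-receptor, -1.32 and -1.57 (1 higher and 1 lower of 6 genes). Of the genes by which soma and germ cells touch, Kitl and Itga6, an integrin subunit gene, were higher and Ncam1, a cell adhesion molecule gene, was lower among 12 measured.

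Cell cycle genes stood out for their low level. Of 30 genes, 27 were at least 2-fold lower in Lgr5-zero cells than in other soma in both libraries and 0 were higher. The medians were -1.80 in KO and -2.59 in WT. Only 23 of the 30 genes reached the minimum of UMIs in KO and WT Lgr5-zero cells together. The rest reached it largely through the other soma, so their direction was largely fixed. The summed level of the list, which has no such minimum, was 662.5 CPM in KO and 489.2 CPM in WT Lgr5-zero cells. In other soma it was 2115.5 and 2255.1 CPM. Mki67, a marker of cycling cells, was at 24.9 and 9.27 CPM against 104 and 115 CPM, and Top2a, the topoisomerase of dividing cells, at 54.0 and 41.9 CPM against 248 and 262 CPM. After thinning, 4.95% (3.76 to 6.38) of KO and 4.00% (2.43 to 6.18) of WT Lgr5-zero cells held at least 5 UMIs of the list, against 26.6% and 27.0% of other soma, and before thinning these were 19.1% and 27.8% of Lgr5-zero cells. Of 4 measured inhibitors of the cell cycle, 2 were higher than in other soma. Cdkn1b, the gene of p27, was at 291 and 295 CPM against 40.5 and 41.5 CPM, a log2 ratio of 2.84 (2.72 to 2.96) and 2.83 (2.69 to 2.98). Cdkn1c, the gene of p57, was at 2351 and 2115 CPM against 1029 and 1054 CPM. The summed level of the inhibitor list was 2749 and 2502 CPM in Lgr5-zero cells and 598 and 628 CPM in collagen-high cells. In keratin-high cells it was 2517 and 2831 CPM, although 32.4% and 33.9% of them held at least 5 cell cycle UMIs after thinning. Among D-type cyclins Ccnd1 was lower and Ccnd2 was at 377 and 381 CPM against 477 and 485 CPM.

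Marker lists of other cell types are given as a description, since their genes reached 100 UMIs largely through the other soma and the direction of many was thereby fixed. In the stroma list 11 of 12 genes were lower than in other soma, among them Dcn and Lum, matrix proteoglycan genes. Lum stood at 1.67 and 2.22 CPM against 62.9 and 90.1 CPM. The summed level of the endothelial list was 43.7 and 52.3 CPM in Lgr5-zero cells against 310 and 222 CPM, that of the immune list 22.2 and 20.02 CPM against 309 and 560 CPM, and that of the haemoglobin list 933 and 44.1 CPM against 58416 and 57953 CPM. Of the surface epithelium list, part of which the rule used, 6 of 9 genes were lower, and of the perivascular list 2 of 4. Pecam1, an endothelial adhesion molecule gene, was at 2.12 and 4.26 CPM against 18.1 and 13.7 CPM. In the Sertoli cell list, which covers the supporting cells of the testis, Aard was higher at 81.8 and 98.8 CPM against 16.8 and 13.8 CPM, and Dhh, a defining Sertoli ligand, had 4 UMIs in KO and 0 in WT, and the floor of 3 counts used for a count of 0, which is not an interval, allows up to 3 UMIs in the 5394892 WT UMIs. In the steroidogenic list Hsd3b1 and Fdxr, a mitochondrial electron donor for steroid synthesis, were higher among 4, while Cyp11a1, the first enzyme of the pathway, gave 4 and 2 UMIs.

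The remaining lists are given beside the 6.58% of all genes that were higher and the 8.02% that were lower than in other soma. Immediate early genes lay above both shares, in a list too short for a result about it. Of 23 immediate early genes 3 were higher (Fosb, Egr2 and Klf4) and 4 lower (Ier3, Ier5, Atf3 and Socs3), with Fosb at 207 CPM in KO and 275 CPM in WT Lgr5-zero cells against 79.5 and 82.7 CPM. Of 8 GR-responsive genes 0 were higher and Sgk1, a kinase gene, was lower, at 3.01 and 5.38 CPM against 18.2 and 19.4 CPM. Hsd11b2, an enzyme gene that inactivates glucocorticoids, was the 1 lower of 7 GR chaperone and ligand-handling genes, and Bcl2l11, which encodes the death-promoting protein BIM, the 1 lower of 10 BCL2 family genes. Of 11 germ cell genes outside the rule, Rec8, a meiotic cohesin gene, at 21.6 and 25.2 CPM against 4.68 and 6.17 CPM, and Dnd1 were higher and 0 lower.

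**Figure D3:**
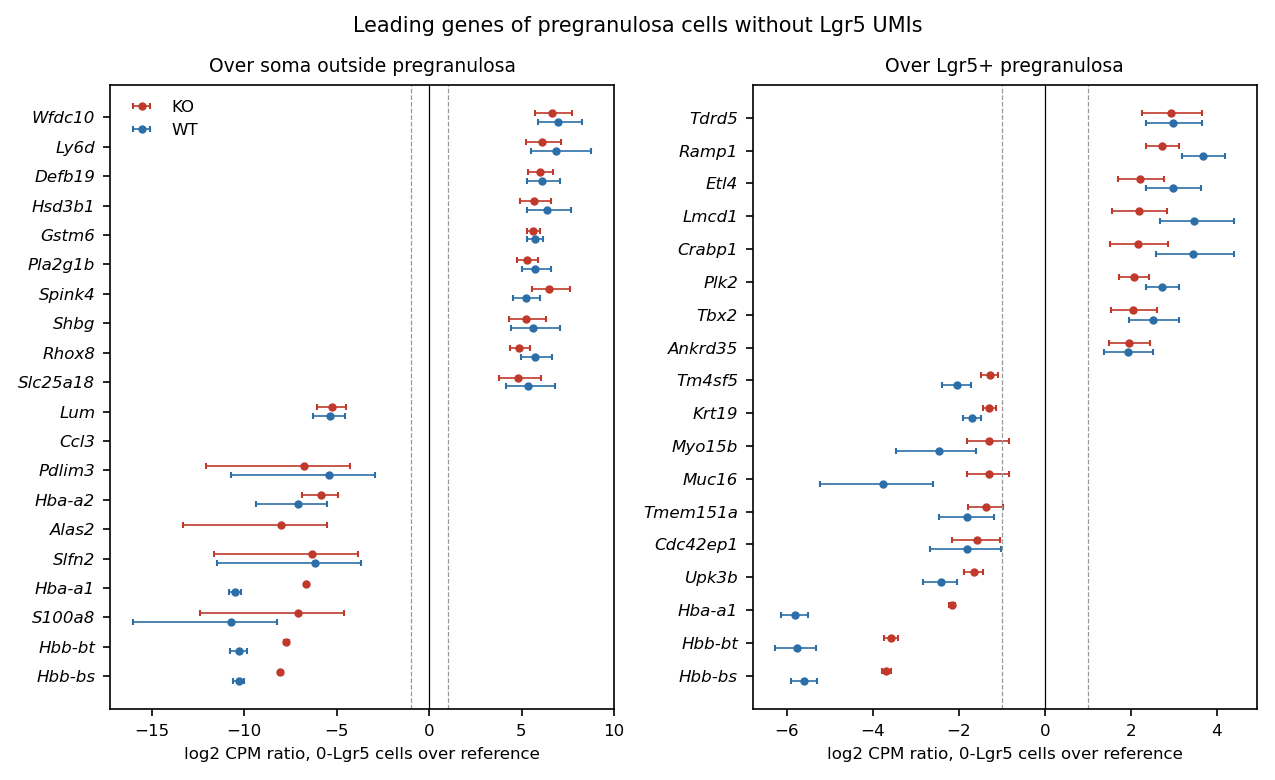
Log2 CPM ratio (x axis) of Lgr5-zero pregranulosa cells over Lgr5-positive pregranulosa cells and over the soma outside the pregranulosa class, for leading genes named in the text and the leading lower genes, in KO and WT; bars are exact 95% counting intervals, dashed lines mark 2-fold, and genes with 0 UMIs in the cells have no point. The leading higher genes against other soma lie between 4.79 and 6.95, and those against Lgr5-positive cells between 1.93 and 3.68.

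The comparison with Lgr5-positive pregranulosa cells asked what separates the cells within their own class. Of 8993 genes tested, 103 (1.15%) differed at least 2-fold in the same direction in both libraries, 75 (0.834%) higher and 28 (0.311%) lower in Lgr5-zero cells. Lgr5-positive cells were deeper, with medians of 9331 UMIs in KO and 13734 in WT. With the Lgr5 classes taken from cells thinned to 3000 UMIs, an alternative chosen after seeing the data, 46 genes differed, 44 higher and 2 lower, and 42 of them were among the 103. In cells with at least 10000 UMIs 11 genes differed, and with a collagen sum under 5 there were 51.

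Genes of surface epithelium were among the lower genes, with haemoglobin genes further from level. Krt19, a keratin of simple epithelia, was at 55.9 CPM in KO and 41.5 CPM in WT Lgr5-zero cells against 137 and 134 CPM in Lgr5-positive cells, a log2 ratio of -1.29 (-1.44 to -1.14) and -1.69 (-1.91 to -1.48). Upk3b, a marker of mesothelium, was at 24.9 and 11.5 CPM against 78.0 and 61.4 CPM, and Muc16, a surface mucin gene, at 5.36 and 1.11 CPM against 13.2 and 15.0 CPM. These were 3 lower of 7 measured epithelial genes, against 0.311% lower of all genes. The list median was -0.93 in KO and -1.59 in WT against 0.05 and 0.07 over all genes. Krt19 and Upk3b belong to the sum that the rule bounded in both classes alike. Tm4sf5, which encodes a membrane protein of the four-transmembrane family, was at 28.9 and 15.2 CPM against 70.4 and 62.7 CPM, Cdc42ep1, an effector of the GTPase CDC42, at 3.91 and 2.97 CPM against 11.7 and 10.4 CPM, and Kdr, the VEGF receptor gene, at 15.4 and 12.8 CPM against 38.2 and 29.7 CPM. Mt2, a metallothionein gene, and Atf3, a stress-induced transcription factor gene, were lower too, with log2 ratios of -1.02 and -2.46 for Mt2 and -1.28 and -2.20 for Atf3. Haemoglobin genes were also among the lower genes, but in Lgr5-positive cells 4 KO and 2 WT cells alone had at least 100 haemoglobin UMIs. A single KO cell held 32.7% of the 28490 haemoglobin UMIs of its class, and a single WT cell 80.8% of 17891.

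Tdrd5 and Ramp1 led the higher side. Ramp1, which encodes a partner protein of the calcitonin receptor-like receptor, was at 41.5 and 59.3 CPM in Lgr5-zero cells against 6.25 and 4.63 CPM in Lgr5-positive cells, a log2 ratio of 2.73 (2.36 to 3.13) in KO and 3.68 in WT. Tdrd5, a tudor domain protein known from the germ line, was at 15.4 and 24.1 CPM against 2.02 and 3.05 CPM, log2 ratios of 2.93 and 2.98. Its level in germ cells was 14.2 and 18.5 CPM, and the part of germ cell transcripts in this difference was not tested. Plk2, a kinase of the polo family, was at 34.1 and 58.4 CPM against 8.09 and 8.78 CPM, and Tbx2, a T-box transcription factor gene, at 15.3 and 23.2 CPM against 3.68 and 4.02 CPM. Crabp1 was at 10.4 and 17.2 CPM against 2.30 and 1.58 CPM, and Etl4, Lmcd1 and Ankrd35 had log2 ratios of 2.22 and 2.98, 2.19 and 3.48, and 1.96 and 1.93.

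Some of these genes were high in the soma outside the pregranulosa class. Tbx2 stood at 50.3 and 50.4 CPM there and Crabp1 at 46.7 and 60.9 CPM, in each case above Lgr5-zero cells, whereas Ramp1 (5.18 and 6.48 CPM) and Tdrd5 (1.93 and 3.82 CPM) were not. In the stroma list 3 of 12 genes were at least 2-fold higher in Lgr5-zero than in Lgr5-positive cells and 0 lower. Over all genes 0.834% were higher and 0.311% lower. The list median was 0.70 in KO and 1.01 in WT, against 0.05 and 0.07 over all genes. Tcf21, a transcription factor gene of stromal progenitors, was at 18.5 and 20.9 CPM against 5.15 and 5.49 CPM, Mfap4, a microfibril protein gene, at 30.1 and 34.8 CPM against 11.1 and 5.0 CPM, and Maf had log2 ratios of 1.09 and 1.16. The smooth muscle genes Acta2, at 46.8 and 44.3 CPM against 16.1 and 8.17 CPM, and Myh11 were both higher. The summed level of the stroma list was 1314 and 1292 CPM in Lgr5-zero cells, 1130 and 1050 CPM in Lgr5-positive cells and 7487 and 7822 CPM in collagen-high cells, while Lum was at 1.67 and 2.22 CPM in Lgr5-zero cells. The part of stromal transcripts in these differences was not tested.

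With 1.15% of all genes past 2-fold between both pregranulosa classes, a count of 0 in a short list is near the background and no result about that list. Of 15 gonadal transcription factor genes 0 differed 2-fold, and of 20 WNT and R-spondin genes 0 did, with Wnt4 at 295 and 321 CPM against 188 and 210 CPM (log2 ratios 0.65 and 0.61). In the activin, BMP and AMH list 3 of 24 genes were higher: Inha at 107 and 116 CPM against 49.5 and 52.8 CPM (1.12 and 1.14), Smad3, a transducer of activin and TGFβ signals, at 17.6 and 28.4 CPM against 8.18 and 11.1 CPM, and Tgfb2, a TGFβ ligand, at 18.6 and 27.6 CPM against 6.25 and 2.19 CPM. Ncam1, at 21.6 and 41.9 CPM against 5.70 and 5.85 CPM, was the single gene of 12 in the germ-soma contact list to reach 2-fold. Bmp2 lay on the lower side, at 54.3 and 47.6 CPM against 87.1 and 98.4 CPM, but reached 2-fold in WT only.

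Supporting cell genes shared with the testis and the cell cycle gave smaller differences. Aard was 2-fold higher (log2 ratios 1.06 and 1.22), and Sox9, the transcription factor of Sertoli cells, was at 15.4 and 20.8 CPM against 8.0 and 6.58 CPM, just under 2-fold in KO. Cdkn1b was at 291 and 295 CPM against 181 and 192 CPM, a log2 ratio of 0.68 (0.60 to 0.77) and 0.62 (0.52 to 0.72), whereas Cdkn1c was slightly lower (-0.21 and -0.48). Of 23 cell cycle genes 0 reached 2-fold (median -0.28 in KO and -0.40 in WT), and the thinned share of cells with at least 5 UMIs of the list was 6.59% and 5.70% in Lgr5-positive cells, against 4.95% and 4.00% in Lgr5-zero cells.

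Lgr5-zero cells varied among themselves, in part with depth. In KO, Fst ran from 653 and 656 CPM in the 2 shallowest bins over 528 CPM to 186 and 76.4 CPM in the deepest, where 48 and 4 cells remained. Krt19 ran the other way, from 42.1 and 29.9 CPM to 152 and 382 CPM. Cdkn1b was lower in deep cells like Fst, at 368 CPM in the shallowest and 87.3 CPM in the deepest KO bin. WT cells did not follow this order for Fst, which was at 369, 481, 673, 643 and 285 CPM from the shallowest to the deepest bin. Krt19 in WT was at 47.7, 24.1, 29.7, 44.9 and 122 CPM, highest in the deepest bin as in KO. Gng13 was lowest in shallow cells, at 479 CPM in KO cells below 6000 UMIs and 1693 CPM from 9000 to under 12000, and at 322 CPM and 608 CPM in WT cells of 6000 and 9000 UMIs upward.

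Gng13 was also the marker that divided the cells most. At 3000 UMIs per cell its Fano factor, the variance over the mean of its UMIs across cells, was 6.02 in KO and 6.54 in WT, where counting error alone gives a value of 1. At that depth 58.8% (55.8 to 61.6) of KO and 43.2% (38.7 to 47.8) of WT Lgr5-zero cells held a Gng13 UMI, against 88.7% and 84.8% of Lgr5-positive cells and 8.95% and 5.78% of germ cells. Cdkn1c (4.69 and 5.43), Mt1 (7.22 and 4.17), Cst12, a cystatin gene (4.09 and 4.04), and Mdk, the growth factor midkine (3.80 and 4.37), were the other variable genes with a known product, beside Hmgb2 (3.88 and 4.04), Tmsb4x (3.61 and 4.06) and Tmem80 (8.57 and 7.68). Malat1 and Gm42418, noncoding RNAs that also mark nuclear or ribosomal RNA content, reached 10.5 and 12.5, and 8.63 and 8.04.

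**Figure D4:**
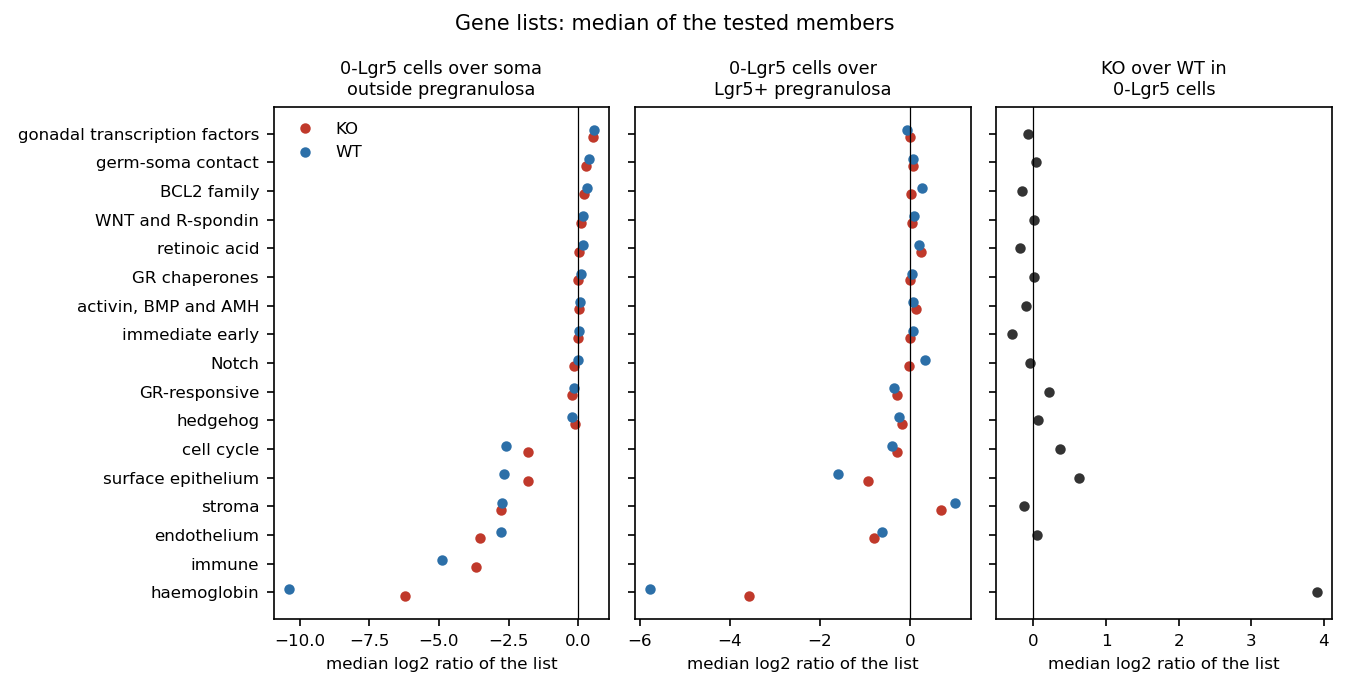
Median log2 CPM ratio of each gene list (y axis) in Lgr5-zero pregranulosa cells against Lgr5-positive cells and other soma in each library and in KO over WT; lists with at least 5 genes tested against other soma are drawn. Cell cycle genes lie at -1.80 and -2.59 against other soma, the surface epithelium list at -0.93 and -1.59 and the stroma list at 0.70 and 1.01 against Lgr5-positive cells.

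The comparison of KO with WT within Lgr5-zero cells addressed the effect of GR loss on them. The targeted gene was low in KO: Nr3c1 gave 51 UMIs (5.69 CPM) in KO and 144 UMIs (26.7 CPM) in WT, a log2 ratio of -2.23 (-2.72 to -1.76). It was -1.62 in Lgr5-positive cells, -1.88 in other soma and -2.64 in germ cells, in the direction of the labels in each. Since UMIs were assigned to genes, a transcript that lacks exon 3 is still included in these values.

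Of 9195 genes with at least 100 UMIs over both libraries, 313 (3.4%) differed at least 1.5-fold between KO and WT Lgr5-zero cells, 142 (1.54%) higher and 171 (1.86%) lower in KO. With median-of-ratios scaling the split was 168 higher and 133 lower. The share was 2.56% of genes tested in Lgr5-positive cells, 2.93% in other soma and 8.76% in germ cells, and a difference between these shares was not tested. With Lgr5 classes from thinned cells 300 genes differed, of which 125 were among the 313. With the classes kept and every cell thinned to 3000 UMIs, 231 genes differed, of which 80 were among the 313. Most of the 313 calls were thus not made again under either setting. Thinned counts kept the minimum of 100 UMIs, so a gene could also drop out for too few UMIs, without a smaller ratio. The part of each was not tested.

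Of the 7 markers, Gng13 and Foxl2 differed by 1.5-fold or more between the libraries, Foxl2 with an interval that includes 0. The log2 ratio of KO over WT was -0.07 (-0.13 to -0.01) for Fst, 0.07 (0.01 to 0.13) for Wnt6, 0.06 for Kitl, -0.16 (-0.23 to -0.08) for Irx3 -0.41 (-0.45 to -0.37) for Kctd14 and -0.59 (-1.35 to 0.17) for Foxl2, which rested on 33 and 30 UMIs. Gng13 was higher in KO, at 1181 against 766 CPM (0.62, 0.57 to 0.68), but over all pregranulosa cells the ratio was 0.16 and in Lgr5-positive cells 0.06. Lhx9, a LIM homeobox gene of the early gonad, behaved alike, with 0.63 in Lgr5-zero cells, 0.11 in Lgr5-positive cells and 0.21 over all pregranulosa cells. With Lgr5 classes from thinned cells, Gng13 gave 0.17 and Lhx9 0.27. KO and WT Lgr5-zero cells differed in median depth (7682.5 and 10971 UMIs), and the part of depth in these values was not tested.

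Keratins, metallothioneins and Atf3 showed the same dependence on the class. In Lgr5-zero cells Krt18 was higher in KO by 0.85 (0.70 to 0.99), Krt8 by 0.65, Krt7 by 0.59 and Upk3b by 1.11, which made 4 higher of 6 measured epithelial genes, while over all pregranulosa cells they were at 0.32, 0.32, 0.03 and 0.38. Mt2 stood at 98.4 CPM in KO and 34.1 CPM in WT (1.53, 1.30 to 1.77), with 0.28 over all pregranulosa cells, and Mt1 at 505 and 251 CPM, with 0.26 over all. Both are metallothionein genes that respond to metals and to glucocorticoids, and they were the 2 higher of 7 measured genes in the GR-responsive list. Its other members included Fkbp5, a GR co-chaperone gene, at 0.16 (-0.03 to 0.34), and Tsc22d3, the gene of GILZ, at -0.24 (-0.47 to -0.01). Of 6 GR chaperone genes 0 differed. Over all genes 3.4% differed and 1.54% were higher in KO, so a count of 0 in a list this short is near the background. Counts in lists of this size are no result about the lists. Atf3 gave 1.10 in Lgr5-zero cells and 0.27 over all pregranulosa cells.

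Other genes differed between KO and WT in the same direction in each somatic class compared. Slc7a2, a cationic amino acid transporter gene, stood at 24.8 CPM in KO and 1.11 CPM (6 UMIs) in WT Lgr5-zero cells, a log2 ratio of 4.48 (3.33 to 5.94), and gave 3.40 in Lgr5-positive cells and 1.49 in other soma. Aldh1a3, a retinaldehyde dehydrogenase gene, stood at 4.58 and 23.5 CPM (-2.36, -2.91 to -1.84), with -1.34 in Lgr5-positive cells and -2.09 in other soma. Gm8730, at 132 and 34.7 CPM (1.93), had nearly the same ratio in Lgr5-positive cells (1.99) and other soma (1.93), and Gm14305 (-1.93), Gm14296 (-1.84) and Tescl (-1.40) were lower in each of these classes. Predicted genes such as Gm8730, Gm14305 and Gm14296 can share reads with near-identical copies and are uncertain. Adamts19, a secreted protease gene, was at 24.6 and 43.9 CPM (-0.84, -1.11 to -0.57), with -1.26 in Lgr5-positive cells and -0.57 in other soma.

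**Figure D5:**
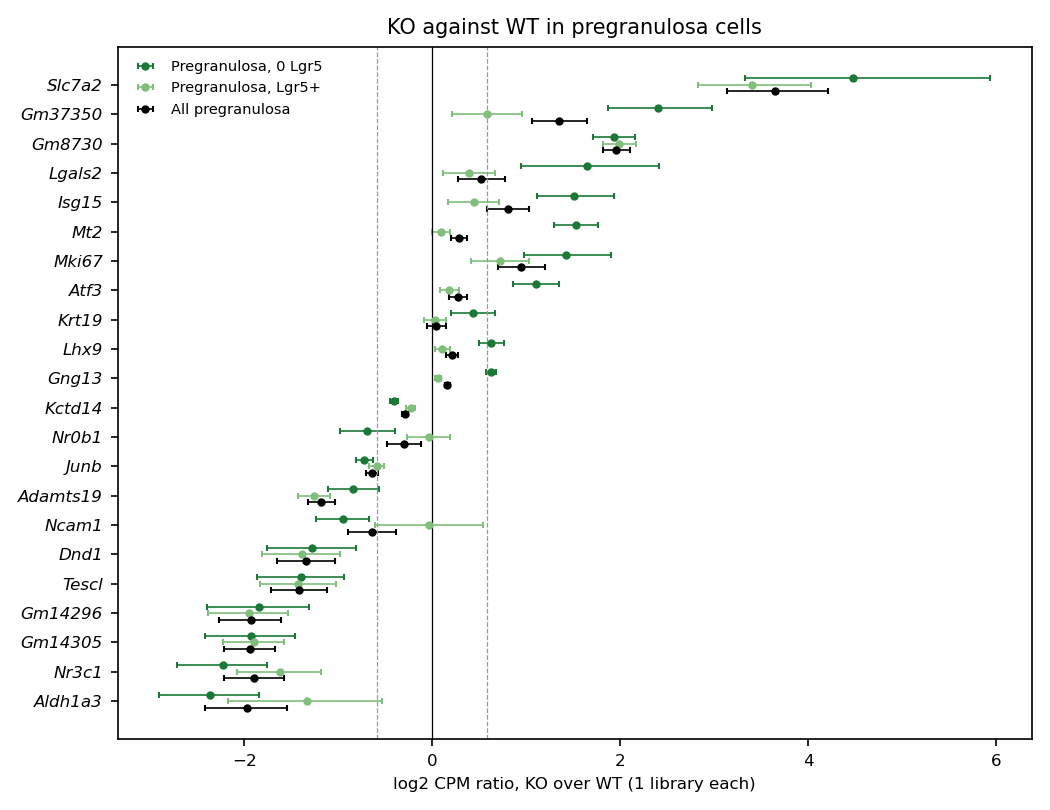
Log2 CPM ratio of KO over WT (x axis) of named genes in Lgr5-zero, Lgr5-positive and all pregranulosa cells; bars are exact 95% counting intervals and dashed lines mark 1.5-fold. Nr3c1 lies at -2.23 in Lgr5-zero cells and below 0 in every class, Slc7a2 at 4.48 and Aldh1a3 at -2.36, while Mt2 and Gng13 lie further from 0 in Lgr5-zero cells than in Lgr5-positive cells.

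Cell cycle genes lay on the whole above 0 in this comparison, and immediate early genes below 0. Of 23 cell cycle genes, 8 were at least 1.5-fold higher in KO and 0 lower, against 1.54% and 1.86% of all genes. Of the 23, 19 lay above 0 and the median was 0.37, against -0.03 over all genes. Mki67 was at 24.9 and 9.27 CPM (1.42, 0.98 to 1.90) and Cenpe, a kinetochore motor gene, at 19.6 and 7.04 CPM (1.48, 0.97 to 2.03). The list median was 0.55 in Lgr5-positive cells and -0.06 in other soma. It was 0.17 in Lgr5-zero cells with every cell thinned to 3000 UMIs and 1.47 in those with at least 10000 UMIs, and the thinned shares of cells with at least 5 UMIs of the list, 4.95% in KO and 4.00% in WT, had overlapping intervals. Of 22 immediate early genes, which respond quickly to stimuli, Atf3 was higher and Junb lower, 5 lay above 0 and the median was -0.30, with -0.13 in Lgr5-positive cells and -0.21 in other soma. Junb stood at 230 CPM in KO and 381 CPM in WT (-0.73, -0.81 to -0.64), Fos at 846 and 977 CPM and Egr1 at 350 and 431 CPM.

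Over all genes, 3.4% reached 1.5-fold. In the activin, BMP and AMH list 2 of 26 genes did, and in the WNT and R-spondin list 2 of 20. So did 2 of 15 gonadal transcription factor genes, 1 of 12 germ-soma contact genes and 1 of 4 Notch genes. The counts were 2 of 10 for retinoic acid, 1 of 9 for the BCL2 family and 0 of 6 for hedgehog. Each of these lists except hedgehog lay above the share over all genes, but counts of 1 or 2 in lists this short are no result about the lists. Inhbb, an activin subunit gene, was higher at 13.1 and 8.16 CPM (0.68, 0.17 to 1.21) and Wnt5a at 17.6 and 11.5 CPM (0.62, 0.19 to 1.07), while Smad3 (-0.69), Nr0b1 (-0.70), Ncam1 (-0.95), Crabp1 (-0.73), Notch2 (-0.59), Znrf3, which encodes a partner of RNF43 (-0.68), and Bcl2, the gene of the antiapoptotic protein (-0.70), were lower. Each was the single gene called in its direction in its list, except for Crabp1, which shared the retinoic acid list with Aldh1a3. Over all pregranulosa cells Nr0b1 gave -0.30, Smad3 -0.53 and Inhbb 0.07, and with Lgr5 classes from thinned cells Wnt5a gave 0.16, Inhbb 0.17 and Nr0b1 -0.32. Stra8, Smc1b and Ddx4, germ cell genes of the rule, were higher by 1.15, 0.60 and 0.60, and the whole list had a median of 0.58, with 0.50 in Lgr5-positive cells and 0.46 in other soma. In cells with at least 10000 UMIs the list median was 0.047 and Ddx4 gave 0.0017, and with every cell thinned Ddx4 gave 0.095.

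Single cells set some of the largest ratios. The 5 haemoglobin genes tested were all higher in KO, but 1 KO cell held 7537 of the 8362 haemoglobin UMIs (90.1%) of the class. Cma1, Tpsb2 and Cpa3, protease genes of mast cells, were among the lower genes through 1 WT cell. Without the cell with most of its UMIs, Nupr1, which had -2.18, gave -0.90, and Nol9, which had -1.56, gave -0.30; leaving out that cell is an alternative chosen after the values were seen. Isg15, an interferon-induced gene, at 32.2 and 11.3 CPM (1.51, 1.11 to 1.94), and Lgals2, a galectin gene, at 11.6 and 3.71 CPM (1.65, 0.95 to 2.42), were higher in KO, with 0.80 and 0.52 over all pregranulosa cells.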

How the data were processed

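The authors deposited raw UMI counts for every gene in every barcode, made with Cell Ranger 3.0.2 per the file headers and not normalized. The submitters' processing notes name Seurat 3.2.3 and mm10. Cell-calling settings, the gene annotation and the treatment of reads that match several genes are not given in the sources used here. Cells were chosen by the stated limits, and counts were summed per class and library and divided by the UMIs of the class (CPM). Ratios carry exact conditional intervals, levels exact Poisson intervals and shares Clopper-Pearson intervals at 95%, with no test, since each group has 1 library. A gene was counted when it had at least 100 UMIs over both sides and differed 2-fold in both libraries between classes, or 1.5-fold between KO and WT. The classes, gene lists and tests were chosen with earlier results of these data known, and support nothing independently.

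Lists covered gonadal transcription factors, signalling pathways (WNT and R-spondin, activin, BMP and AMH, Notch, hedgehog, retinoic acid), germ-soma contact, cell cycle, CDK inhibitors, D-type cyclins, GR-responsive genes, GR chaperones, immediate early genes, the BCL2 family and markers of other cells (surface epithelium, stroma, Sertoli, steroidogenic, endothelium, perivascular, immune, haemoglobin, germ cells). Named genes were the markers, the 10 genes past the limit with the largest ratio per direction, and from each list its most abundant and called members. Genes named for single cells were chosen after their values were seen. Of 27998 genes, 27645 matched GENCODE M21 (GRCm38). Shares were repeated with each cell thinned to 3000 UMIs (seed 1). Doublets were kept, and Scrublet (expected rate 8%) was an alternative. The other alternatives were the limits of the study on cells, depth, the limits of the rule, scaling, weighting of cells, the minimum of UMIs and the size of a call. Simulated counts were used to test the counting step. Python 3.11.15, numpy 2.4.6, scipy 1.17.1, pandas 2.3.3, scanpy 1.11.5 and matplotlib 3.10.9 were used. A few genes that met the naming rule are not reported here.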

Additional observations from a re-analysis of the deposited data

Results flagged for a closer look

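Below the minimum of 3000 UMIs, 28 KO barcodes and 7 WT barcodes met the rest of the rule, with 0 Lgr5 UMIs, and entered no comparison. For 3 genes the KO over WT ratio ran in opposite directions in Lgr5-zero pregranulosa cells and in germ cells. Col1a1, a collagen gene of the rule, had a log2 ratio of -0.59 (-0.91 to -0.28) in Lgr5-zero cells and 0.74 (0.65 to 0.84) in germ cells. Dpysl3, which encodes a cytoskeletal protein of growing axons, had -0.76 (-1.13 to -0.38) and 0.90 (0.68 to 1.12). Lmcd1, a LIM domain gene, had -0.70 (-1.11 to -0.30) and 0.97 (0.61 to 1.34). With 1 library per group the difference between both cell classes was not tested.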

How the results depend on the processing

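The share of pregranulosa cells with 0 Lgr5 UMIs, 50.6% in KO and 45.1% in WT, was 28.9% and 36.7% in cells with at least 10000 UMIs, 47.3% and 40.5% with a collagen sum under 5, and 75.7% and 76.4% after thinning. Against Lgr5-positive cells, 103 genes became 11 in cells with at least 10000 UMIs, 51 with a collagen sum under 5, 46 with Lgr5 classes from thinned cells (chosen after seeing the data), 44 with every cell thinned, 556 with at least 1 UMI on each side, 29 with at least 500 UMIs and 61 with a difference of 0.25 in ln(UMIs per 10000 + 1). Against other soma, 1453 became 537, 679 (thinned), 2919 (1 UMI), 537 (500 UMIs) and 653 (ln). KO against WT, 313 became 638 in cells with at least 10000 UMIs, 3295 (1 UMI), 47 (500 UMIs) and 42 (ln), and Nr3c1 went from -2.23 to -2.73 in the deep cells. Median-of-ratios scaling turned the split against other soma from 655 higher and 798 lower to 462 and 937, and KO against WT from 142 and 171 to 168 and 133. The other 60 values of these results stayed within 1.5 times or within counting error. For the gene counts this compares how many genes were called, not which. KO against WT, 231 genes were called with every cell thinned, of which 80 were among the 313. The minimum of UMIs was not lowered for thinned counts, so genes could also leave the count for too few UMIs. With a collagen sum under 5 there were 314, of which 207 were among the 313.

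Of the named genes, 13 ratios changed sign. KO over WT, Bvht gave 0.33 when thinned, Crabp1 0.22 and Nupr1 0.060 with a collagen sum under 5, and Gm28578 -0.58 with Lgr5 classes from thinned cells. Against Lgr5-positive cells without Scrublet doublets, KO gave 2.90 for Hba-a1, 0.97 for Hbb-bs and 1.72 for Hbb-bt and WT 0.084 for Hba-a1 and 0.50 for Hbb-bt, and with Lgr5 classes from thinned cells KO gave 0.61, 0.24 and 0.69 for Hba-a1, Hbb-bs and Hbb-bt. S100a8 against other soma gave 1.73 in deep KO cells. The cause was not tested. A further 293 ratios moved beyond their counting interval or their limit, and 1863 did not. Of the list medians of KO over WT, 34 values moved by over 0.1 and 273 did not. No paired analysis was possible because each group has 1 library and the labels carry no replicate numbers. Haemoglobin genes have no value in the scaling that leaves them out. Depth limits Foxl2 and Lgr5 most, since a gene at a few CPM gives 0 UMIs in most cells.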

Other observations

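Near Nr3c1 on chromosome 18 (GRCm38), 4 of 47 genes tested within 5 Mb (8.51%) differed at least 1.5-fold between KO and WT Lgr5-zero cells, against 3.4% of all genes tested. They were Dnd1, a germ cell RNA-binding protein gene (-1.28, -1.76 to -0.81), Ppp2r2b, a phosphatase subunit gene (1.45, 0.92 to 2.01), Dpysl3 (-0.76) and Eif3j2 (-0.64, -0.95 to -0.33). Within 20 Mb, 7 of 114 genes (6.14%) differed, Adamts19 among them. Dnd1 stood at 7.25 CPM in KO and 17.6 CPM in WT Lgr5-zero cells, at 6.89 and 18 CPM in Lgr5-positive cells and at 3.01 and 2.74 CPM in germ cells. Eif3j2 may share reads with its near-identical copy and is uncertain. The part of the region around the deleted allele in these values was not tested.

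Ptgds, which encodes prostaglandin D synthase and was chosen here after its values were seen, stood at 15.7 CPM in KO and 10.9 CPM in WT Lgr5-zero cells, at 2.94 and 2.56 CPM in Lgr5-positive cells and at 1.98 and 2.73 CPM in other soma. Hsd11b2, an enzyme gene that inactivates glucocorticoids, was at 5.24 and 9.27 CPM in Lgr5-zero cells, 0.827 and 1.22 CPM in Lgr5-positive cells and 32.4 and 38.3 CPM in other soma.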
